A study of Mus musculus with 12 samples.

Results

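The histone genes were taken from a table of FPKM values (fragments relative to gene length and to library size, the unit in which every level below is given) as the protein-coding genes whose symbols begin with Hist and a digit, H2af, H3f3 or H1f. They were 55 of the 12584 genes of the table. Of these, 48 carry Hist names, with 4 linker histone H1 genes, 9 H2A, 12 H2B, 10 H3 and 13 H4 genes, and 7 are variant genes, namely H1f0, H2afx, H2afz, H2afv, H2afy, H3f3a and H3f3b. A further 4 symbols of the same form belong to processed pseudogenes and were left out. The libraries were made from CT26, a mouse colon carcinoma cell line, in 4 groups of 3 that were exposed for 24 h to phosphate-buffered saline (PBS) or to a preparation named NP@M, NP-D@M or, in the last group, NP-D@MP. What the letters stand for is not spelled out, and the series title speaks of a nanodrug against CDKs (cyclin-dependent kinases) that bears a cancer cell membrane. All groups share the 1 cell line. Whether the 3 libraries of each group were separate cultures is not stated, and p-values speak only of the spread among these libraries. The protocol text speaks of retinas where the other labels name the cell line.

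Histones package DNA: H2A, H2B, H3 and H4 form the nucleosome core, and H1 binds the linker between cores. Replication-dependent histone genes lie in clusters, have no introns and are transcribed in S phase, when new DNA must be packaged. Their mRNAs end in a stem-loop in place of a poly(A) tail, and the stem-loop binding protein SLBP holds this loop through processing, export and translation. Variant histones are made outside S phase as well, mostly from polyadenylated mRNAs, and replace the replication-dependent forms at particular places. The library kit named in the labels, Illumina TruSeq RNA, captures RNA by its poly(A) tail as sold and does not mark strand, so a level of a tail-less mRNA here is the level of what reached the library. In bulk RNA, fewer cells with a transcript and less transcript per cell cannot be told apart.

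The stem-loop was looked for as a perfect stem of 6 base pairs around a loop of 4 bases in the GENCODE M21 models (GRCm38), since it ends the mRNAs of the tail-less class. Its presence in a model does not show that the RNA in these libraries lacked a tail. It was found after the coding sequence of 35 of the 48 Hist genes and of 1 of the 7 variants, H2afx, and somewhere in the transcripts of 48 of 10363 other coding genes of the table (0.463%). The other 13 Hist models hold no match, which says only that these letters are not in the model. Distances from the last coding base to the loop, with the stop codon counted in, ran from 24 to 57 bases. The sites of 6 genes that the results turn on are given with the 16-base stem-loop in capitals and 5 bases on either side.
Hist1h2bb (chr13:23747198-23747223, + strand): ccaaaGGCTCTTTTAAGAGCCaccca
Hist1h2ae (chr13:23570663-23570688, - strand): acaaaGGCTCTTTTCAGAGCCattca
Hist1h1c (chr13:23739507-23739532, + strand): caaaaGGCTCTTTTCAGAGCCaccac
Hist1h4h (chr13:23531453-23531478, + strand): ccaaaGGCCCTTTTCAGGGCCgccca
Hist1h4i (chr13:22040961-22040986, - strand): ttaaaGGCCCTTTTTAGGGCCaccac
H2afx (chr9:44335235-44335260, + strand): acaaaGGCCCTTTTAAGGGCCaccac
Across the 35 Hist genes there were 6 forms of the 16 bases. The form in Hist1h1c and Hist1h2ae was the most common, in 19 genes (3 H1, 5 H2A, 7 H2B and 4 H3), and the form in Hist1h4h was in 7 genes, all H4. The annotated model goes on for more than 100 bases after the loop in 18 of the 35 genes. It goes on for 840 bases in Hist1h1c and 1153 in Hist1h1e but for 46 in Hist1h4h, and for 822 in the variant H2afx. Of the genes printed above, the models of Hist1h1c, Hist1h2ae, Hist1h4h, Hist1h4i and H2afx hold a poly(A) signal (AATAAA or ATTAAA). It lies in their last 50 bases, and Hist1h2bb has no such match. Whether the mRNAs carried a tail was not tested.

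The Hist genes lie mostly together: 44 are on chromosome 13 between 21715763 and 23762386, 3 on chromosome 3 and 1 on chromosome 6. Neighbours there can share a promoter. Hist1h2bg and Hist1h2ae are transcribed away from each other, and their 300-base promoter windows (250 bases before to 50 after the start, RefSeq, GRCm38.p6) overlap nearly whole. The window of Hist1h2bg is printed because both genes were among the highest of their types, with TATAAA and CCAAT on either strand in capitals.
Hist1h2bg promoter (chr13:23571150-23571449, + strand): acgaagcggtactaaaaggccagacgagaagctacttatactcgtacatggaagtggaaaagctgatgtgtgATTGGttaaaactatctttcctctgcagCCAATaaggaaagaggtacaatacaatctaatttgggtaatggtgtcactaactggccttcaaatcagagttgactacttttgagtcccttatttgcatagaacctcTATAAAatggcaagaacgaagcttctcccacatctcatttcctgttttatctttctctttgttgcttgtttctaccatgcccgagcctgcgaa
TATAAA on either strand was in 28 of 45 Hist promoters (62.2%, from 44 genes with an entry) against 13.6% of 32851 promoters of the same length, and CCAAT on either strand was in 36 (80%) against 37.4%. Both were in 22 Hist promoters (48.9%) against 5.31% of all. Of the 6 variant promoters, 1 held TATAAA and 4 held CCAAT. These matches are a description of the letters, not of binding.

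Reads could be recovered from the FPKM values, since every value was a whole number of reads to within a relative tolerance of 1e-06. Each library held 12.8 to 15.7 M reads over the table, of which 1231 to 2016 came from Hist genes and 8117 to 35309 from variants. The library size that the authors divided by was 28.2 to 31.1 M in PBS and NP@M but 7.13 to 8.395 M in NP-D@M and NP-D@MP, so the same number of reads gives a higher FPKM in the latter. This size was 1.95 to 2.02 times the reads over the table in PBS and NP@M. In NP-D@M and NP-D@MP it was 0.533 to 0.565 times, less than the reads themselves. The reason is not given. A read here is thus 1 step of a library's FPKM values and may not be the unit the authors counted. Scaling each library to its own total over the table instead moved the median log2 change of all genes tested from -0.19 to -1.44 in NP-D@M against NP@M and from -0.16 to -1.44 in NP-D@MP against PBS. Counts on both scales, the deposited one and this one, called the table scale, are given for that reason. Shares and ratios within a library do not depend on this choice. Of 10 colon epithelium markers, 3 were in the table, with a summed level of 15.1 to 18.7 FPKM in PBS and NP@M and 73.1 to 91.2 FPKM in NP-D@M and NP-D@MP. Of the 2 tested, 1 rose and 0 fell in NP-D@M against NP@M, and 1 rose and 1 fell in NP-D@MP against PBS. On the table scale, 1 rose and 1 fell in each comparison. Epcam, Cdh1, Krt8, Krt19, Cdx2, Vil1 and Muc2 were not among the genes of the table. None of the 8 retina or 7 lymphocyte markers was in the table, and endothelial markers summed to at most 0.191 FPKM in any library. The summed level of 7 fibroblast and stroma genes of 8 listed was 469 to 539.7 FPKM in PBS and NP@M and 1217 to 1561 FPKM in NP-D@M and NP-D@MP, though 4 of the 5 tested fell. That of 3 myeloid genes of 6 listed was 2.57 to 3.25 and 9.31 to 21.3 FPKM. Of the 2 myeloid genes tested, 2 rose in each comparison on the deposited scale, and 0 and 1 rose on the table scale. The part of these markers in the histone results was not tested.

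In PBS and NP@M, Hist genes were scarce and variants abundant. A mean under 1 FPKM was found for 45 of the 48 Hist genes in PBS and for 45 in NP@M, and 9 and 18 of them had no read in any library of PBS and of NP@M. The exceptions were Hist1h1c, Hist1h2bg and Hist1h2bc, a linker histone and a pair of H2B genes. Hist1h1c alone gave 74.2% ± 2.52 (SD, n = 3) of Hist reads in PBS and 71.1% ± 2.60 in NP@M. In NP-D@M and NP-D@MP the same gene gave 25.98% ± 1.72 and 28.4% ± 2.17, and the number of Hist genes with at least 1 read was 34 to 47 and 45 to 46 per library, against 28 to 34 in PBS and 22 to 23 in NP@M. Only 3 of the 48 Hist genes would have passed the filter on low values (at least 1 FPKM in 3 libraries) in the PBS and NP@M libraries alone, whereas 37 passed over all 12. A gene that passed only through libraries in which it is high had to differ, so all counts and p-values of Hist genes in the comparisons of NP-D@M with NP@M and of NP-D@MP with PBS are from a fit of all genes without the filter.

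**Figure D1:**
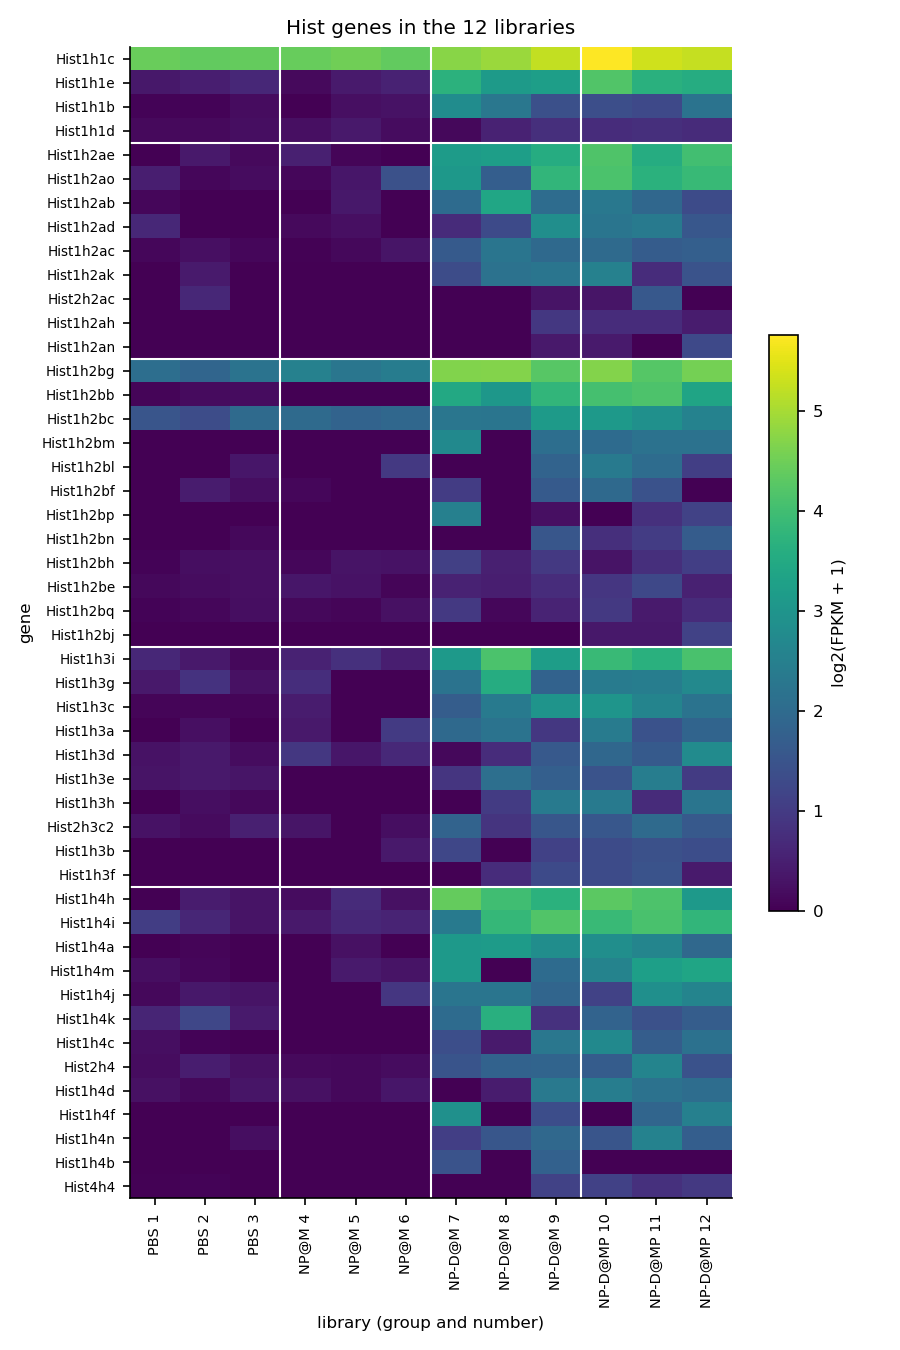
Level of each of the 48 Hist genes (rows, grouped by histone type) in each of the 12 libraries (columns, named by group and number), as log2(FPKM + 1) in colour. Hist1h1c is bright in all 12 columns, while 45 genes have a mean under 1 FPKM in PBS.

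Between NP-D@M and NP@M, Hist genes called higher in NP-D@M outnumbered those called lower. Of 48 Hist genes, 31 rose and 0 fell (limma adjusted p under 0.05, all 12584 genes in the fit). Over all genes of that fit, 35.1% were called higher and 45.8% lower. On the table scale, 24 of the 48 rose and 2, Hist1h1c and Hist1h2bc, fell, where 14.5% of all genes were higher and 67.0% lower. By type without the filter, 3 of 4 H1, 6 of 9 H2A, 5 of 12 H2B, 7 of 10 H3 and 10 of 13 H4 genes rose, so that the H2B count lies near the share over all genes. Of the H2B genes, 3 rose and 1 fell on the table scale. In 27 of the 48 genes all 3 NP-D@M libraries were above all 3 NP@M libraries and in 0 below, where 34.4% of all genes were above. The median log2 change of FPKM + 1 over the 48 genes was 1.39, against -0.14 over all genes. As a fold of group means, with a group of 0 reads set to a floor of 3 reads per library, the median over the 43 genes above the floor in at least 1 group was 11.7, and 13 of these 43 folds are lower bounds. A gene kept only because NP-D@M was above the floor had to show a rise, so this fold only describes the genes kept. For NP@M against PBS, 26 genes were kept. Groups with few reads were not set to the floor, so their folds are uncertain. The fold is on the deposited scale.

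Between NP-D@MP and PBS, which share no library with that comparison, 41 of 48 Hist genes rose and 0 fell, where 37.0% of all genes were higher and 45.0% lower. On the table scale, 32 of the 48 rose and Hist1h1c alone fell, where 14.6% of all genes were higher and 67.1% lower. All 4 H1 genes, 7 of 9 H2A, 10 of 12 H2B, all 10 H3 and 10 of 13 H4 genes rose without the filter. In 42 genes all NP-D@MP libraries were above all PBS libraries and in 0 below, where 39.2% of all genes were above. The median log2 change was 1.63, against -0.11 over all genes, and the median fold over 43 genes was 20.8 with 5 of them lower bounds. The same limits hold for this fold, which only describes the genes kept, on the deposited scale.

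**Figure D2:**
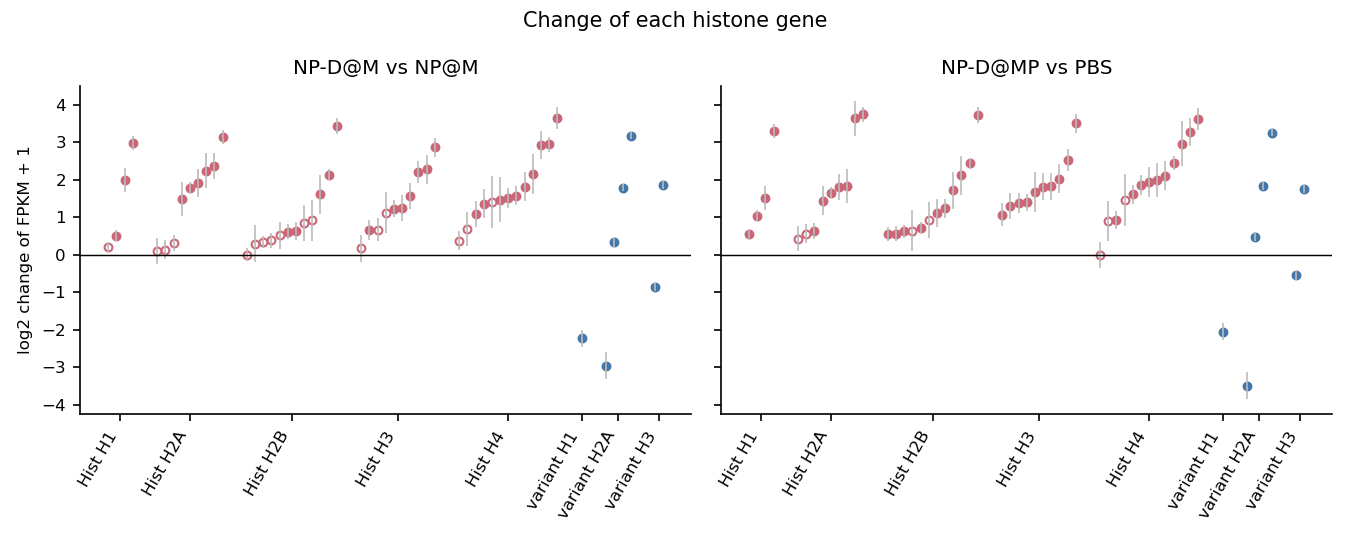
Log2 change of FPKM + 1 (y axis) with its standard error for each histone gene, grouped by class and type along the x axis, with NP-D@M vs NP@M on the left and NP-D@MP vs PBS on the right; filled points passed limma's adjusted p of 0.05 in the fit without the filter. On the deposited scale no Hist gene passed below 0, while 3 of the 7 variants did; on the table scale, Hist1h1c fell in both panels and Hist1h2bc in the left panel.

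The linker histone genes differed among themselves. Hist1h1c, which encodes the H1.2 linker histone, stood at 20.8, 19.99 and 20.2 FPKM in PBS, 20.5, 22.0 and 19.97 in NP@M, 25.7, 28.8 and 36.9 in NP-D@M and 53.4, 39.5 and 37.0 in NP-D@MP. No library of the latter groups overlapped PBS or NP@M on this scale. Its log2 change was 0.51 ± 0.15 (SE) in NP-D@M against NP@M (limma adjusted p = 0.00804) and 1.04 ± 0.15 in NP-D@MP against PBS (limma adjusted p = 6.23e-05), but it turned to -1.25 and -0.79 on the table scale and was below 0 with quantile normalization too. Hist1h1e, which encodes the H1.4 linker histone, stood at 0.304, 0.406 and 0.570 FPKM in PBS, 0.101, 0.332 and 0.467 in NP@M, 12.04, 7.78 and 8.33 in NP-D@M and 17.3, 11.6 and 10.9 in NP-D@MP. The groups were far apart, by a log2 change of 2.99 ± 0.19 (limma adjusted p = 9.17e-08) and 3.30 ± 0.19 (limma adjusted p = 4.01e-08), and it stayed higher on the table scale (1.95 and 2.09). Its annotated model overlaps that of Hist1h2be on the same strand, so reads of the shared part cannot be assigned to either gene. Without Hist1h1c, the H1 genes summed to 0.644 ± 0.321 FPKM in NP@M and 13.6 ± 3.90 in NP-D@M, and to 0.629 ± 0.212 in PBS and 16.1 ± 3.02 in NP-D@MP.

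Among the H2A genes, Hist1h2ae had the highest mean. It stood at 0, 0.324 and 0.101 FPKM in PBS, 0.417, 0.048 and 0 in NP@M, 7.95, 8.42 and 10.9 in NP-D@M and 17.1, 10.9 and 15.3 in NP-D@MP, from 9, 10, 153 and 225 reads in the 4 groups. Its log2 change was 3.13 ± 0.19 in NP-D@M against NP@M (limma adjusted p = 5.90e-08) and 3.74 ± 0.19 in NP-D@MP against PBS (limma adjusted p = 1.38e-08). Hist1h2ao was less even, with 0.407, 0.0679 and 0.148 FPKM in PBS, 0.0679, 0.281 and 1.68 in NP@M, 7.44, 2.30 and 12.9 in NP-D@M and 16.4, 11.8 and 13.7 in NP-D@MP. The lowest NP-D@M library was 2.30 and the highest NP@M library 1.68 FPKM, and 25 of the 30 NP@M reads came from replicate 6. Its log2 change was 2.24 ± 0.47 (limma adjusted p = 0.00107) and 3.63 ± 0.47 (limma adjusted p = 2.74e-05). Of its 50-base words, 93.5% occur in annotated transcripts of other genes, on either strand, so its reads may belong in part to copies. Models that overlap a gene count among these transcripts, and the rest of the genome was not searched. Unnamed gene models lie on the other strand of both H2A genes, and their reads cannot be told apart without strand. The 9 H2A genes summed to 1.14 ± 0.696 FPKM in NP@M and 30.9 ± 9.40 in NP-D@M, and to 0.968 ± 0.589 in PBS and 41.3 ± 7.92 in NP-D@MP.

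Among the H2B genes, Hist1h2bg, the divergent neighbour of Hist1h2ae, was already present in PBS. It stood at 3.27, 2.69 and 3.56 FPKM in PBS, 4.75, 3.82 and 4.37 in NP@M, 24.5, 25.0 and 18.1 in NP-D@M and 24.9, 17.9 and 22.5 in NP-D@MP. Its log2 change was 2.14 ± 0.15 (limma adjusted p = 1.94e-07) and 2.44 ± 0.15 (limma adjusted p = 6.41e-08), and it stayed higher at 0.49 and 0.78 on the table scale. Hist1h2bb stood at 0.0641, 0.128 and 0.14 FPKM in PBS, from 5 reads in all. It had no read in the 3 NP@M libraries, and stood at 10.1, 7.33 and 12.9 FPKM in NP-D@M and 15.8, 16.9 and 9.38 in NP-D@MP. NP-D@M was at least 52.2-fold higher than NP@M, taking the floor of 3 reads per library. The limma adjusted p was 5.88e-08 in NP-D@M against NP@M and 3.08e-08 in NP-D@MP against PBS, where its log2 change was 3.72 ± 0.21. Hist1h2bc, whose model holds no stem-loop, stood at 2.77 ± 0.196 FPKM in NP@M and 5.10 ± 2.33 in NP-D@M, and this rise (limma adjusted p = 0.0371) turned to a log2 change of -0.80 on the table scale.

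The H3 and H4 genes of the Hist class were nearly silent in PBS and NP@M. Hist1h3i stood at 0.555, 0.317 and 0.0864 FPKM in PBS, 0.476, 0.739 and 0.392 in NP@M, 7.54, 16.4 and 8.30 in NP-D@M and 13.99, 11.6 and 16.4 in NP-D@MP, a log2 change of 2.87 ± 0.25 (limma adjusted p = 1.10e-06) and 3.51 ± 0.25 (limma adjusted p = 2.04e-07). Hist1h3g stood at 0.307, 0.800 and 0.201 in PBS, 0.677, 0 and 0 in NP@M, 3.596, 10.9 and 2.53 in NP-D@M and 4.29, 4.48 and 5.56 in NP-D@MP, and it rose in both comparisons (limma adjusted p = 0.000241 and 0.000592), though on the table scale the second was not called (limma adjusted p = 0.0511). For these H3 genes 87.6% and 54.1% of the 50-base words occur in annotated transcripts of other genes. Hist1h4h stood at 0, 0.347 and 0.227 FPKM in PBS, 0.139, 0.646 and 0.205 in NP@M, 20.3, 14.96 and 11.9 in NP-D@M and 18.8, 16.8 and 7.76 in NP-D@MP. Its log2 change of 3.64 ± 0.30 (limma adjusted p = 6.35e-07) was the largest of the Hist genes in NP-D@M against NP@M, and in NP-D@MP against PBS it was 3.62 ± 0.30 (limma adjusted p = 6.65e-07). Hist1h4i stood at 1.08, 0.538 and 0.244 in PBS, 0.314, 0.557 and 0.487 in NP@M, 4.10, 13.3 and 17.3 in NP-D@M and 13.98, 16.1 and 12.9 in NP-D@MP, and rose in both (limma adjusted p = 3.13e-05 and 1.27e-05). The 13 H4 genes together went from 1.63 ± 0.774 FPKM in NP@M to 58.7 ± 1.94 in NP-D@M and from 2.41 ± 0.785 in PBS to 64.5 ± 8.73 in NP-D@MP.

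On the table scale the log2 changes of Hist1h1e, Hist1h2ae, Hist1h2ao, Hist1h2bb, Hist1h3i, Hist1h3g, Hist1h4h and Hist1h4i ran from 0.96 to 2.74. The remaining Hist genes were low throughout. In NP-D@M and NP-D@MP, 14 and 11 of the 48 still had a mean under 1 FPKM. Hist1h2bj had reads in NP-D@MP only, 6 in all, and Hist1h4b in NP-D@M only, 14 in all. Near-identical copies are common in this family. A median of 49.4% of 50-base words was found in annotated transcripts of other genes, and over 50% in 22 of the 48 genes. The division of reads among single genes is therefore less certain than their sum.

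All 7 variant genes passed the filter in PBS and NP@M alone, so they were tested with it. In NP-D@M against NP@M 4 rose and 3 fell, where 41.8% of the 10101 genes tested were called higher and 47.7% lower. In NP-D@MP against PBS the counts were again 4 and 3, where 43.2% of the genes tested were higher and 47.3% lower. Changes in both directions are thus what the genes tested show as a whole. On the table scale, 1 variant rose and 4 fell in each comparison, where 1766 and 1772 of the 10101 genes tested were higher and 7124 and 7148 lower. The median log2 change over the 7 was 0.33 and 0.48 on the deposited scale.

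H2afy, which encodes macroH2A1, a large H2A form found on silent chromatin, rose the most. It stood at 5.46, 5.77 and 5.38 FPKM in PBS, 4.80, 5.46 and 5.05 in NP@M, 54.0, 47.4 and 61.1 in NP-D@M and 61.8, 62.4 and 60.3 in NP-D@MP, and the groups did not overlap. It was 10.6-fold higher in NP-D@M than in NP@M and 11.1-fold higher in NP-D@MP than in PBS (limma adjusted p = 1.22e-10 and 9.81e-11). It was still higher on the table scale, by a log2 change of 1.48 and 1.497.

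H2afz and H2afv encode the H2A.Z forms, which are exchanged into nucleosomes near promoters. H2afz, the most abundant histone mRNA of the set per length, stood at 171, 164 and 144 FPKM in PBS, 148, 144 and 127 in NP@M, 178, 148 and 206 in NP-D@M and 237, 219 and 214 in NP-D@MP. The NP@M and NP-D@M libraries met at 148 FPKM. Its log2 change of 0.33 ± 0.13 (limma adjusted p = 0.0262) and 0.48 ± 0.13 (limma adjusted p = 0.00332) turned to -1.49 and -1.40 on the table scale and was below 0 with quantile normalization too. The call in NP-D@M against NP@M was lost when replicate 6 of NP@M, or either of replicates 7 and 9 of NP-D@M, was left out (limma adjusted p = 0.0986, 0.0534 and 0.107) and with the 6 libraries compared alone (limma adjusted p = 0.0705). H2afv stood at 21.6, 19.9 and 19.2 FPKM in PBS, 16.6, 18.5 and 19.8 in NP@M, 64.5, 59.0 and 74.2 in NP-D@M and 80.2, 75.2 and 69.5 in NP-D@MP. It was 3.601-fold and 3.71-fold higher (limma adjusted p = 2.09e-08 and 1.65e-08), and on the table scale it lay near 0, at 0.01 and -0.00056. Within each library, the ratio of H2afv to H2afz, which no scaling changes, was 0.112 to 0.155 in PBS and NP@M and 0.324 to 0.398 in NP-D@M and NP-D@MP. NP-D@M stood 2.83-fold above NP@M and NP-D@MP 2.64-fold above PBS (two-sided exact permutation p = 0.1 for each, the smallest that 3 against 3 libraries allow).

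H2afx, which encodes the form of H2A that is phosphorylated at DNA breaks, was the variant that fell the most and the only variant with a stem-loop. It stood at 35.4, 34.5 and 37.7 FPKM in PBS, 29.9, 23.6 and 25.9 in NP@M, 1.89, 4.88 and 1.58 in NP-D@M and 1.35, 1.52 and 4.96 in NP-D@MP. Replicates 8 and 12 were the highest of their groups, and no library of NP-D@M or NP-D@MP came near PBS or NP@M. It was 9.50-fold lower in NP-D@M than in NP@M and 13.7-fold lower in NP-D@MP than in PBS, a log2 change of -2.95 ± 0.35 (limma adjusted p = 8.14e-06) and -3.49 ± 0.35 (limma adjusted p = 1.90e-06). The table scale put these at -4.43 and -4.97. Its reads went from 3351 over the NP@M libraries to 89 over the NP-D@M libraries, and from 4441 over PBS to 79 over NP-D@MP. Unnamed gene models overlap H2afx, and likewise H1f0 and H2afy, and reads of the shared parts cannot be assigned with certainty.

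H3f3a and H3f3b encode the same variant protein, H3.3, which is placed outside S phase at active genes and at telomeres. H3f3a stood at 20.7, 23.1 and 17.8 FPKM in PBS, 17.5, 16.6 and 15.7 in NP@M, 66.9, 54.4 and 69.8 in NP-D@M and 68.3, 77.0 and 69.0 in NP-D@MP, a log2 change of 1.87 ± 0.12 (limma adjusted p = 3.63e-08) and 1.76 ± 0.12 (limma adjusted p = 6.26e-08). These were 0.10 and -0.08 on the table scale, and the second was not called with quantile normalization either (limma adjusted p = 0.0801). H3f3b went the other way, with 137, 131 and 137 FPKM in PBS, 134, 147 and 131 in NP@M, 73.2, 66.4 and 88.7 in NP-D@M and 102, 85.1 and 89.0 in NP-D@MP, 1.81-fold and 1.46-fold lower (limma adjusted p = 2.29e-05 and 0.000771). Its log2 change was -2.67 and -2.42 on the table scale. The ratio of H3f3a to H3f3b was 0.121 ± 0.00891 in NP@M and 0.841 ± 0.0664 in NP-D@M, and 0.153 ± 0.0233 in PBS and 0.784 ± 0.116 in NP-D@MP. It was 6.94-fold and 5.13-fold higher (two-sided exact permutation p = 0.1 for each). For H3f3a, 27.1% of the 50-base words occur in annotated transcripts of other genes, against 6.86% for H3f3b. Antisense models including H3f3aos overlap H3f3a and count among these transcripts.

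H1f0 encodes H1.0, the linker histone of resting and differentiated cells. It stood at 119, 122 and 115 FPKM in PBS, 107, 97.6 and 93.5 in NP@M, 13.9, 20.1 and 30.7 in NP-D@M and 34.3, 25.0 and 25.4 in NP-D@MP, and fell by 2.22 ± 0.22 (limma adjusted p = 1.72e-06) and by 2.05 ± 0.22 (limma adjusted p = 3.49e-06) on the log2 scale, and its change was -3.99 and -3.89 on the table scale. The ratio of H1f0 to Hist1h1c was 4.78 ± 0.406 in NP@M and 0.689 ± 0.147 in NP-D@M, and 5.85 ± 0.216 in PBS and 0.653 ± 0.0282 in NP-D@MP. In PBS and NP@M H1f0 was thus the higher of these linker genes in all 6 libraries, and in the other 6 libraries Hist1h1c was.

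**Figure D3:**
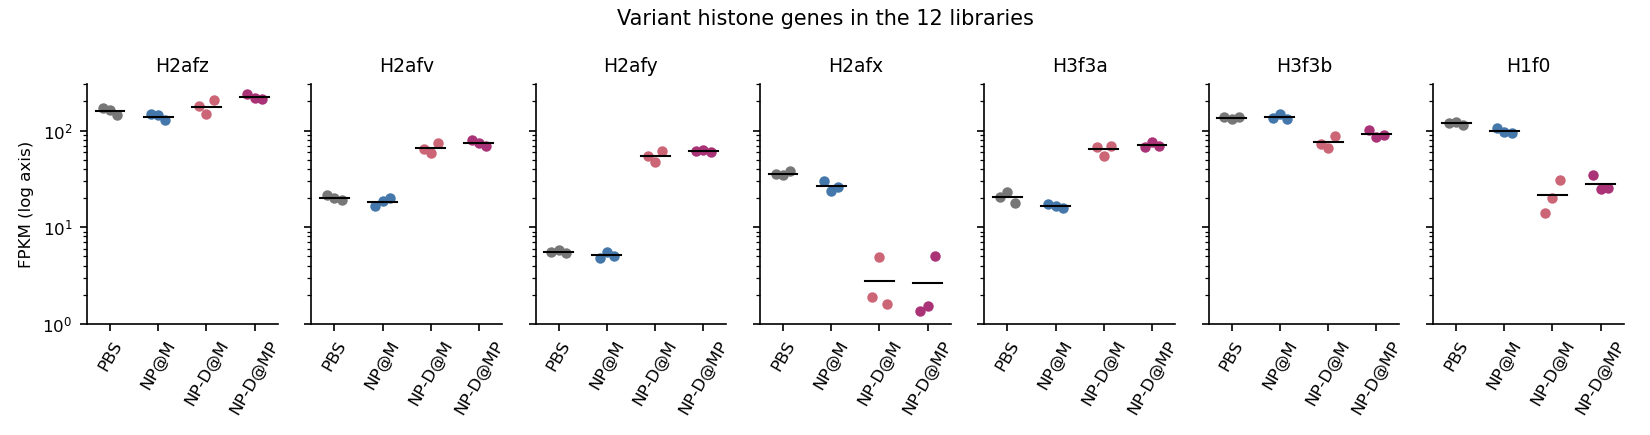
FPKM on a log axis of the 7 variant histone genes in the 12 libraries (1 point each), with the group mean as a bar. H2afy, H2afv and H3f3a stand higher and H2afx, H3f3b and H1f0 lower in NP-D@M and NP-D@MP on the deposited scale; on the table scale, H2afz fell and H2afv and H3f3a were not called.

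Hist and variant genes were then compared within each library. Hist genes gave 3.54%, 3.61% and 3.88% of the reads of the 55 histone genes in PBS and 4.12%, 4.25% and 4.50% in NP@M. They gave 11.6%, 13.3% and 12.4% in NP-D@M and 14.5%, 13.1% and 12.5% in NP-D@MP. No library of NP-D@M or NP-D@MP was near PBS or NP@M, and the share was 2.89-fold higher in NP-D@M than in NP@M and 3.64-fold higher in NP-D@MP than in PBS. Without Hist1h1c it went from 1.28% ± 0.165 to 9.48% ± 0.585 and from 0.980% ± 0.140 to 9.96% ± 0.545. The parts of this share were also counted relative to the total reads of the table (reads per M). Reads of all 48 Hist genes stood at 91.1 ± 1.03 in NP@M and 102 ± 11.4 in NP-D@M, 1.12-fold higher, and at 84.7 ± 3.25 in PBS and 126 ± 16.5 in NP-D@MP, 1.49-fold higher. Variant reads were 2.83-fold and 2.73-fold lower, a larger change than that of the Hist reads. Hist reads without Hist1h1c went from 26.4 ± 2.39 to 75.1 ± 6.87 and from 21.9 ± 2.82 to 90.2 ± 9.19, and variant reads went from 2035 ± 81.0 to 719.8 ± 89.8 and from 2220 ± 38.3 to 813.7 ± 33.6. In summed FPKM, the 48 Hist genes were 6.18-fold higher in NP-D@M than in NP@M and 8.12-fold higher in NP-D@MP than in PBS, while the 7 variants were 1.04-fold and 1.12-fold higher. The table scale put the log2 ratio of the Hist sums at 0.79 and 1.13 and that of the variant sums at -1.777 and -1.73.

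**Figure D4:**
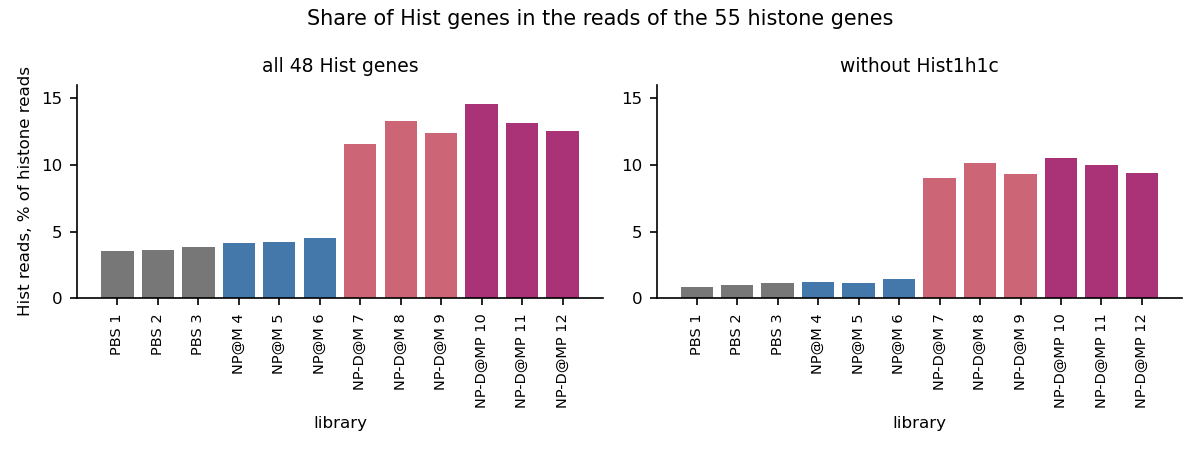
Reads of Hist genes as a percentage of the reads of all 55 histone genes (y axis) in each of the 12 libraries (x axis, group and number), for all 48 Hist genes (left) and without Hist1h1c (right). The 6 libraries of PBS and NP@M lie between 3.54% and 4.50% on the left and the other 6 between 11.6% and 14.5%.

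Hist genes are short, with a median length of 595 bases, and 34 of the 48 are at most 1000 bases long, whereas the shortest variant has 1384 bases. Gene length moved with the groups among other genes as well. Of 276 coding genes of at most 1000 bases that are not histones, 70.7% were called higher and 11.2% lower in NP-D@M against NP@M without the filter, against 32.9% and 51.7% of 10118 longer coding genes. Of the 34 Hist genes of that length, 24 (70.6%) rose. In NP-D@MP against PBS, 72.8% of the short coding genes were called higher, and 27 (79.4%) of the short Hist genes. On the table scale, 48.6% and 50.4% of the short coding genes were called higher, against 20 (58.8%) and 24 (70.6%) of the 34 short Hist genes. On the deposited scale, the share of short Hist genes called higher in NP-D@M against NP@M thus lay within 1 percentage point of that of other short coding genes. The part of gene length in the Hist result was not tested.

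**Figure D5:**
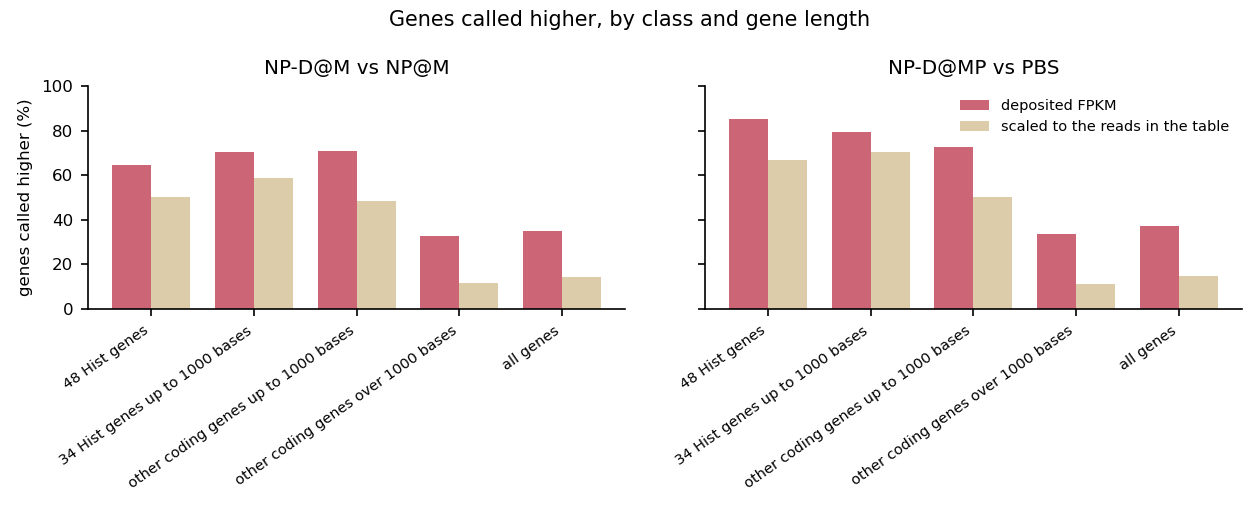
Percentage of genes called higher by limma in fits without a filter (y axis), for Hist genes, short Hist genes, other coding genes by length, and all genes, on the deposited FPKM scale and on the table scale. Short coding genes that are not histones reach 70.7% for NP-D@M vs NP@M, and 72.8% for NP-D@MP vs PBS, on the deposited scale.

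Hist genes rose with and without a stem-loop in the annotated model. Of the 35 with a stem-loop in the model 24 rose in NP-D@M against NP@M and 30 in NP-D@MP against PBS, and of the 13 without a match 7 and 11 rose. Where the model ends within 100 bases of the loop, 12 of 17 rose in each comparison, and where it goes on for longer, 12 and 18 of 18. These counts are from the fit without the filter, where 35.1% and 37.0% of all genes were called higher. The differences between these classes were not tested. Other RNAs without a poly(A) tail (small nuclear, small nucleolar and Cajal body RNAs and a few named genes) numbered 72 in the table, of which 58 passed the filter. Of these, 37 rose and 7 fell in NP-D@M against NP@M and 43 and 7 in NP-D@MP against PBS, and 34 and 9, then 33 and 8, on the table scale. These genes passed the filter over all 12 libraries, so the counts only describe those that passed. Over all 10101 genes tested, 41.8% and 43.2% were higher and 47.7% and 47.3% lower. On the table scale, 1766 and 1772 of them were higher and 7124 and 7148 lower. Of 241 coding genes of at most 1000 bases that passed the filter and are not histones, 80.5% and 82.2% were higher on the deposited scale. Rn7sk, the RNA that holds the elongation factor P-TEFb inactive, stood at 1.19 ± 0.191 FPKM in NP@M and 18.2 ± 13.1 in NP-D@M, and at 0.799 ± 0.336 in PBS and 23.2 ± 3.20 in NP-D@MP (limma adjusted p = 9.70e-05 and 8.83e-06).

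The genes of the machinery that makes histone mRNA were counted next, with the filter. Of 24 listed processing genes, 20 were tested, of which 10 rose and 8 fell in each comparison, and 4 and 11, then 5 and 11, on the table scale. Over all genes tested the shares are 41.8% higher and 47.7% lower, then 43.2% and 47.3%, and the counts of this list and of the chaperone and polyadenylation lists lie near them on the deposited scale. On the table scale, 1766 of the 10101 genes tested were higher and 7124 lower, then 1772 and 7148. Slbp, the stem-loop binding protein gene, stood at 9.69 ± 1.04 FPKM in NP@M and 2.28 ± 0.406 in NP-D@M, and at 8.001 ± 0.536 in PBS and 2.19 ± 0.163 in NP-D@MP, 4.24-fold and 3.66-fold lower (limma adjusted p = 4.65e-08 and 1.46e-07). Npat, which switches on histone gene transcription at the onset of S phase, went from 3.94 ± 0.822 to 0.0130 ± 0.0225 and from 2.94 ± 0.366 to 0.215 ± 0.0804 FPKM. Casp8ap2, a further factor of the histone locus body, was 12.3-fold and 7.28-fold lower, and Lsm10, a subunit of the U7 particle that cuts histone mRNA, fell from 7.13 ± 1.05 to 0.0431 ± 0.0746 and from 8.30 ± 1.17 to 0.0473 ± 0.0819 FPKM. These falls passed the test (limma adjusted p = 9.32e-09 for Npat, 9.05e-08 for Casp8ap2 and 8.93e-10 for Lsm10 in NP-D@M against NP@M). Eri1, the nuclease that trims the histone mRNA end, was 2.79-fold and 2.87-fold lower (limma adjusted p = 5.47e-06 and 5.45e-06). Cpsf3, the nuclease that cuts both histone and poly(A) pre-mRNAs, rose 4.02-fold in each (limma adjusted p = 3.21e-09 and 3.18e-09), and on the table scale it was not called. Upf1, which takes part in the decay of histone mRNA, stood at 10.2 ± 1.15 and 10.5 ± 3.15 FPKM in NP@M and NP-D@M (limma adjusted p = 0.979) and was lower, at -1.66, on the table scale. These genes were chosen by name and most of them fell, whereas 10 of the 20 tested rose and 8 fell on the deposited scale. They do not stand for the list. Of 16 canonical polyadenylation genes, 4 rose and 9 fell, and 5 and 8 in the second comparison, and 3 and 13, then 2 and 12, on the table scale.

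Histone chaperones carry new histones to DNA. Of 29 listed, 27 were tested, of which 11 rose and 11 fell in NP-D@M against NP@M and 11 and 12 in NP-D@MP against PBS, and 2 and 22 in each on the table scale. Over all 10101 genes tested, 41.8% and 43.2% were higher and 47.7% and 47.3% lower, and the chaperone counts lie near these shares. On the table scale, 1766 and 1772 genes were higher and 7124 and 7148 lower. Asf1b and Nasp, which handle newly made H3 and H4, were 1.53-fold and 3.21-fold lower in NP-D@M than in NP@M (limma adjusted p = 0.00121 and 3.54e-05) and 1.89-fold and 3.48-fold lower in NP-D@MP than in PBS (limma adjusted p = 5.36e-05 and 2.42e-05). Of the CAF-1 subunits, Chaf1a stood at 3.64 ± 0.416 and 2.89 ± 0.220 FPKM in NP@M and NP-D@M (limma adjusted p = 0.0601) and was 1.43-fold lower in NP-D@MP than in PBS (limma adjusted p = 0.00646). Its log2 change was -1.64 and -1.85 on the table scale, where both were called. With quantile normalization it was 0.21 in the first comparison and the second was not called (limma adjusted p = 0.802). Chaf1b was 1.24-fold and 1.21-fold higher (limma adjusted p = 0.0191 and 0.0337), but turned to -1.21 and -1.26 on the table scale. Its first call was lost without NP@M replicate 4 or NP-D@M replicate 7 (limma adjusted p = 0.0592 and 0.0599), and its second without PBS replicate 1 or 3 or without NP-D@MP replicate 10, 11 or 12 (limma adjusted p from 0.05002 to 0.146). Both were lost with voom (limma adjusted p = 0.068 and 0.119) and with only the 6 libraries compared (limma adjusted p = 0.051 and 0.0523). The chaperones of H3.3 parted: Hira rose 3.80-fold and 4.48-fold (limma adjusted p = 1.36e-06 and 3.53e-07) and was not called on the table scale, while Daxx was 10.1-fold and 8.32-fold lower (limma adjusted p = 6.96e-06 and 1.01e-05). Hjurp, which places the centromeric H3 variant, was 5.88-fold and 8.21-fold lower (limma adjusted p = 3.88e-09 and 9.79e-10).

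S phase genes are the setting in which Hist genes are normally transcribed. Of 30 listed, 27 were tested, of which 16 rose and 11 fell in both comparisons, and 3 and 21, then 3 and 22, on the table scale. The shares over all genes tested are 41.8% and 43.2% higher and 47.7% and 47.3% lower. On the table scale, 1766 and 1772 of the 10101 genes tested were higher and 7124 and 7148 lower, so falls predominate among all genes there too. Ccne1, Ccne2 and Cdk2, the cyclin E genes and their kinase, were 2.07-fold, 2.68-fold and 3.11-fold lower in NP-D@M than in NP@M (limma adjusted p = 0.000146, 9.15e-05 and 4.83e-06) and 2.49-fold, 4.49-fold and 4.05-fold lower in NP-D@MP than in PBS. Pcna, the DNA polymerase clamp, was 2.12-fold and 2.03-fold higher (limma adjusted p = 1.75e-07 and 3.09e-07), but its log2 change was -0.74 and -0.87 on the table scale and below 0 with quantile normalization too. Rrm2, a ribonucleotide reductase subunit, was 1.21-fold and 1.46-fold lower (limma adjusted p = 0.0462 and 0.00138), and its log2 change was -2.06 and -2.36 on the table scale. The first call was lost with a pseudocount of 0.1 (limma adjusted p = 0.0596), with the 6 libraries compared alone (limma adjusted p = 0.0859), and without any of NP@M replicates 4, 5 and 6 or NP-D@M replicates 7 and 9 (limma adjusted p from 0.0687 to 0.179). The S phase genes given here were chosen by name and most of them fell, whereas 16 of the 27 tested rose on the deposited scale. They do not stand for the list. Of the genes named from these lists, Slbp, Npat, Casp8ap2, Lsm10, Eri1, Asf1b, Nasp, Daxx, Hjurp, Ccne1, Ccne2 and Cdk2 were lower on the table scale as well, with log2 changes from -1.91 to -4.44.

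NP@M against PBS, groups whose names both lack the D, gave no limma call among the 55 genes, with or without the filter. With the filter, 0.0% of the genes tested were called higher and 0.0099% lower. At an unadjusted limma p under 0.05 without the filter, 1 of 48 Hist genes was higher and 0 lower (2.08%) and 1 variant was lower, where 10.8% of all genes passed in either direction, 597 higher and 767 lower. Limma voom on the recovered reads called 0 with the filter, and 0 of all genes. Without the filter it called 1 Hist gene lower, where 19 of all 12584 genes were higher and 66 lower. All 3 NP@M libraries lay above all PBS libraries in 1 Hist gene, Hist1h2bg, where 11.7% of all genes did, and below in 4, where 14.7% did. Among the variants, 0 lay above and 3, H2afx, H1f0 and H3f3a, below. H2afx stood at 35.9 ± 1.67 FPKM in PBS and 26.5 ± 3.18 in NP@M (limma adjusted p = 0.641), and H1f0 at 119 ± 3.44 and 99.4 ± 7.08 (limma adjusted p = 0.658). The share of Hist reads was 1.17-fold higher in NP@M.

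NP-D@MP against NP-D@M, whose names differ by the P, likewise gave 0 limma calls among the 55 genes with the filter, where 0.0396% of genes tested were higher and 0.0099% lower. At an unadjusted limma p under 0.05 without the filter, 10 of 48 Hist genes were higher and 2 lower (25%) and 2 variants higher, where 16.6% of all genes passed in either direction, 1401 higher and 682 lower. Limma voom called 0 of the 55 with or without the filter, and 0 of all genes. All NP-D@MP libraries were above all NP-D@M libraries in 4 Hist genes, where 9.01% of all genes were, and below in 0, where 4.24% were. NP-D@M replicate 9 stood apart from replicates 7 and 8: only 1 Hist gene had 0 reads in it against 10 and 14, and it was the highest of its group in 26 of 48 Hist genes. Over all 12584 genes, too, 11546 had reads in replicate 9, against 10385 in replicate 7 and 10410 in replicate 8. The difference in detection is thus not particular to Hist genes. How often replicate 9 was the highest among all genes was not counted. Without it, 9 Hist genes rose and 1, Hist1h1b, fell, and the variants H1f0, H2afz and H3f3b rose, where 9.59% of genes tested were higher and 2.87% lower. The largest of these rises was that of Hist1h4d, by 2.005 ± 0.16 (limma adjusted p = 0.000262), from 0 and 0.363 FPKM in replicates 7 and 8. Fitted on the 6 libraries of the comparison alone, limma called 0 of 10101 genes in either direction.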

How the data were processed

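RNA of CT26 cells was sequenced in 12 libraries, 3 in each of 4 groups taken from the treatment labels. The authors deposited 1 table of FPKM values over 12584 genes, which also lists each gene's identifier, position and length. How reads were counted, with which strand setting, and how genes were chosen are not given in the sources used here. Per the submitters' processing notes the tool was Bowtie 0.12.2 and the build mm8, but 12571 identifiers are in GENCODE M21 (GRCm38), 12104 of them at the same coordinates, including all 55 members, so GRCm38 was used. Reads were recovered from the FPKM steps. The unit is not a count, so tests were made with limma 3.58.1 (R 4.3.3) on log2(FPKM + 1), over all 12 libraries with 1 estimate of spread, for genes at 1 FPKM or more in at least 3 libraries (10101) and again without this filter, which is the fit behind the p-values of Hist genes where a group with D is set against one without, with Benjamini-Hochberg adjustment over all genes of the fit. A fold change on this scale understates that of low genes. Folds in the text are ratios of group means of FPKM. Comparisons that use the same group share its libraries. The members and lists were chosen with earlier results of these data known. Values in every library are given for each variant that passed the filter, for the 2 Hist genes of each type with the highest mean, and for the 3 called Hist genes with the largest rise and the 3 with the largest fall in each comparison whose groups do not overlap. The genes given from the other lists were chosen by name. Hist1h1b, Hist1h2bc, Hist1h4d, Hist1h2bj and Hist1h4b were named after their values were seen. Other scalings, filters, pseudocounts, limma voom on the recovered reads and leaving out each library were tried. The scripts were tested on simulated data.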

Additional observations from a re-analysis of the deposited data

How the results depend on the processing

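Depth limits single Hist genes: 7 to 15 of the 48 had at least 10 reads in a PBS or NP@M library. The number of libraries, 3 per group, and the authors' library sizes, which differ between the groups, limit every level. No paired analysis was possible because the libraries are numbered in 1 series, with no number shared between groups.

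Counts here start from the fit with the filter. In the comparisons of NP-D@M vs NP@M, then NP-D@MP vs PBS, the counts of Hist genes called higher moved beyond 1.5 times with a mean of at least 5 FPKM, which left 9 Hist genes in the fit, all 9 higher in each. Of these, only Hist1h1c had a mean of at least 5 FPKM in PBS and in NP@M. The others passed only through libraries in which they are high, so they had to differ. In that fit, 3193 and 3245 of all 4944 genes were called higher. Hist genes called lower went from 0 to 2 and 1 on the table scale (2 and 1 without the filter too) and to 1 and 1 with quantile normalization. On the table scale, 7124 and 7148 of the 10101 genes tested were lower and 1766 and 1772 higher. With quantile normalization, 4218 and 4273 of them were lower and 3813 and 3840 higher. Variants called higher went from 4 to 1 and 1 on the table scale, with or without the filter, and to 2 in NP-D@MP vs PBS with quantile normalization. Limma voom without the filter called 1 Hist gene lower in NP@M vs PBS, where 19 of all 12584 genes were higher and 66 lower. In NP-D@MP vs NP-D@M, leaving out single libraries gave 0 to 9 Hist genes higher, 0 to 1 lower and 0 to 3 variants higher. Without the filter, leaving out NP-D@M replicate 9 gave 9, 1 and 3, where 1022 of all 12584 genes were higher and 337 lower. Leaving out replicate 8 without the filter gave 1 Hist gene lower, where 4 of all genes were higher and 6 lower.

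The median log2 change relative to all genes tested was, for the 37 Hist genes that passed the filter, a selected set, 1.77 and 1.99 in these comparisons. It became 2.45 and 2.46 on the table scale, 1.95 and 2.20 with quantile normalization, 1.53 and 1.74 without the filter, 3.95 and 4.01 with a pseudocount of 0.1, 5.08 and 5.14 with voom and, in the second, 2.40 at a mean of at least 5 FPKM. For variants it was 0.53 and 0.65, and became -0.0517 and 0.0400 on the table scale, -2.02 and -1.97 with quantile normalization and -0.73 and -0.62 at a mean of at least 5 FPKM. Leaving out single libraries gave 1.72 to 1.93 for Hist genes in NP-D@M vs NP@M, 0.15 to 0.54 in NP-D@MP vs NP-D@M, and 0.56 to 0.69 for variants in NP-D@MP vs PBS.

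The log2 ratio of summed FPKM became, on the table scale, 0.79 and 1.13 for Hist genes and -1.777 and -1.73 for variants, and 0.0774 for variants in NP-D@MP vs PBS at a common median ratio. Without Hist1h1c it was 3.75, 4.21 and, in NP@M vs PBS, 0.19 for Hist genes, and the share of Hist reads was 0.980%, 1.28%, 9.48% and 9.96% in the 4 groups, in the order of the report. Leaving out Hist1h1c, and dropping the filter together with another choice, were chosen after seeing the data.

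Single genes changed sign as follows, for NP-D@M vs NP@M and then NP-D@MP vs PBS. On the table scale, Hist1h1c was at -1.25 and -0.79, H2afz at -1.49 and -1.40, Upf1 at -1.66 and -1.61, Chaf1b at -1.21 and -1.26, Pcna at -0.74 and -0.87, and in the second comparison H3f3a at -0.0838 and H2afv at -0.00056. With quantile normalization, Hist1h1c was at -0.721 and -0.31, H2afz at -2.13 and -2.09, Upf1 at -0.41 and -0.449, Pcna at -1.239 and -1.350, and Chaf1a at 0.21 in the first. Upf1 in the first comparison was also at -0.0360 at a common median ratio and -0.00325 with voom, and ran from -0.18 to 0.23 over left-out libraries. Calls of H2afz, Chaf1b and Rrm2 that were lost when libraries were left out are given in the report. Beyond the change of scale itself, the cause was not tested.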
